A study of Mus musculus with 18 samples.

Results

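The comparison described here is the effect of an ATXN1 transgene on the cerebellum of mice, averaged over 2 ages. It rests on 12 of the 18 libraries of the series. The ATXN1[30Q]D776/Cck-/- genotype (called transgenic below) gave 3 libraries at postnatal week 12 and 3 at week 28. The controls, Cck-/-, gave the same numbers at the same ages. All mice were of the FVB strain and all are labelled as lacking both copies of Cck, so the labels of the 2 groups differ by the transgene alone. Neither wild-type animals nor the transgene with intact Cck were analysed here. The transgene encodes ataxin-1 with 30 glutamines and an aspartate at the position its name gives. A further 3 libraries per genotype from week 5 were left out of the average because Cck itself differed between genotypes at that age (81.0, 112 and 102 FPKM in transgenic and 25.8, 17.1 and 19.5 FPKM in Cck-/- libraries). Their values entered the filter on low levels, the choice of 5 of the genes named below by rule, and an alternative fit of all 18 libraries. They entered none of the main tests. No label ties a library to an animal, so p-values measure the spread between libraries, which may be technical.

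Spinocerebellar ataxia type 1 is an inherited loss of coordination caused by an expanded glutamine tract in ataxin-1, a nuclear protein that binds the transcriptional repressor Capicua. The disease strikes Purkinje cells, the large inhibitory neurons that are the only output of the cerebellar cortex. An aspartate in place of the serine at that position mimics phosphorylation there, and mice of this line are known to become ataxic with a tract of unexpanded length. In this line the transgene is known to be driven by regulatory sequence of Pcp2, which is active in Purkinje cells; the labels name no promoter, and transcripts of the transgene itself were not analysed here. Purkinje cells convert input from parallel fibres into calcium release through inositol trisphosphate and its receptor, and many of their most abundant transcripts belong to that cascade.

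Values are in FPKM, a level per transcript length and per mapped fragment of the library, as normalised by the authors over the whole series. FPKM of the 12 libraries summed to between 389248 and 441509, and between 12767 and 13323 genes reached 1 FPKM in a library; read counts and depth are unknown. The highest sum was that of transgenic week 28 replicate 2, where the small RNA gene AF357426 alone stood at 49462 FPKM and was listed at 0 in the other 11. Correlations of log2 values ran from 0.984 to 0.995 within groups and from 0.971 to 0.993 between groups. Markers of cerebellum were present in all 12: Pcp2, which marks Purkinje cells, had a median of 543 FPKM in transgenic and 702 FPKM in Cck-/- libraries. Some libraries stood apart. Transgenic week 28 replicate 3 had a mean log2 level of 1.47 over 18 choroid plexus genes, against 2.53 to 4.05 in the other 11 libraries, and it also had the smallest loss of Purkinje cell transcripts of its group. Cck-/- week 28 replicate 1 had the lowest such level of the 12 for granule neuron genes (6.36) and the highest for blood (5.62) and meningeal genes (4.72). Among Cck-/- libraries it was also highest for homeostatic microglia (3.34) and reactive astrocyte genes (2.78). Leaving out this control raised the pooled calls to 1177, the most of any single library. Transgenic week 12 replicate 2 and week 28 replicates 1 and 3 held both Xist, an RNA of female cells, and transcripts of the Y chromosome: Xist was at 58.8, 3.23 and 91.4 FPKM and Ddx3y at 2.75, 27.2 and 0.280 FPKM. These are called the 3 mixed libraries below, and the main counts and calls are given with and without them. No cutoff defined the set: Cck-/- week 28 replicate 1 held Xist at 0.462 FPKM beside Ddx3y at 28.7 FPKM and was kept. Cck-/- libraries of week 12 with Y-linked transcripts had Xist at 0.119 and 0.157 FPKM. The fit without the 3 mixed libraries keeps 2 transgenic libraries at week 12 and 1 at week 28. Whether a call lost in that fit reflects the mixture or the smaller number of libraries was not tested. Libraries with Xist and libraries with Y-linked transcripts occurred in each of the 4 groups. Cck did not pass the test between genotypes at these ages (17.1, 14.4 and 12.8 FPKM in transgenic and 13.8, 16.6 and 11.1 FPKM in Cck-/- libraries at week 12, and 8.35, 6.34 and 4.85 FPKM against 7.34, 3.85 and 3.71 FPKM at week 28; limma, log2 fold change 0.23, SE 0.16, adjusted p = 0.475), and it was above 0 in every library, although all animals carry the null label. Mouse Atxn1 stood at 5.73 FPKM in transgenic and 5.85 FPKM in Cck-/- libraries (medians of 6; limma, log2 fold change -0.0065, SE 0.11, adjusted p = 0.983).

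Averaged over both weeks, 997 of 13487 genes tested (7.39%) passed an adjusted p under 0.05. Of these, 396 were higher in transgenic cerebellum (2.94% of genes tested) and 601 were lower (4.46%). Changes were mostly small: the median log2 fold change was 0.29 among the higher genes and -0.32 among the lower ones, and 43 genes changed by at least 1 on the log2 scale (2-fold), 5 upward and 38 downward. Because 1 was added to each FPKM before taking logarithms, folds of genes under about 5 FPKM are understated. Groups were clearly apart for many of them. In 309 of the 601 lower genes, every transgenic library lay below every Cck-/- library over all 12, where 2.42% of all genes tested showed that pattern. For the higher genes the number was 89 of 396, against 0.741%. The genes were called on these same 12 libraries, so the lack of overlap partly restates the call and is no independent support. Without the 3 transgenic libraries that held both Xist and Y-linked transcripts, a fit to the remaining 9 libraries called 177 genes, 29 higher and 148 lower; 176 of the 177 were among the 997, and all 997 kept their sign.

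**Figure D1:**
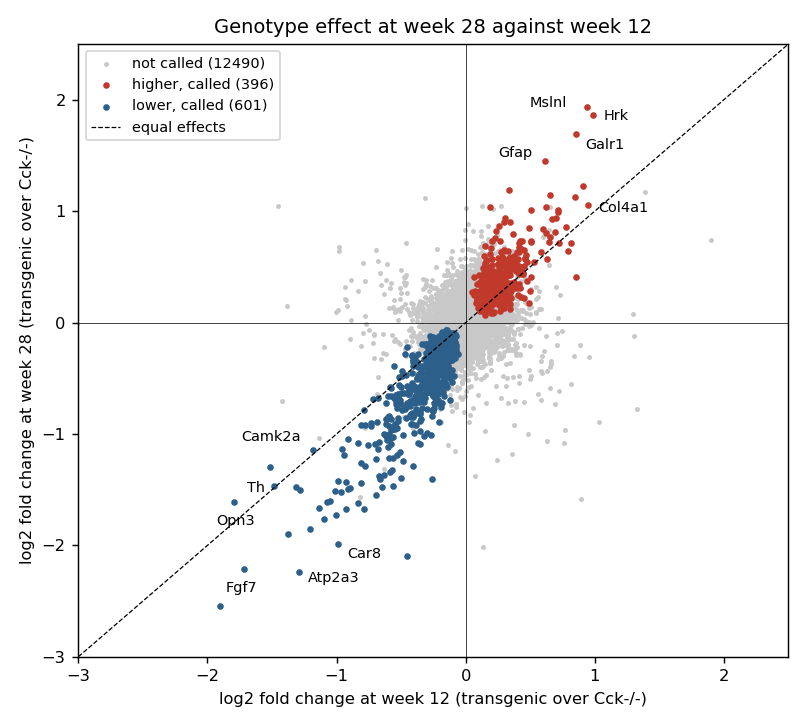
Log2 fold change of each tested gene at week 12 (x axis) and at week 28 (y axis), transgenic over Cck-/-, 3 libraries per group; coloured points are the 997 genes called in the average of the 2 weeks and grey points the others, with 4 uncalled genes beyond the axes. Called genes lie in the lower left and upper right quadrants, most of them on the week 28 side of the dashed line of equal effects.

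The reduced transcripts were led by genes whose groups lay far apart. Within each of the 2 weeks, 4.57% of all genes tested were lower without overlap and 2.57% were higher without overlap, and the genes named here were taken from those. Positions printed beside gene names are loci as listed with the deposited values, and a locus may extend beyond the gene. Fgf7, a secreted growth factor of the fibroblast growth factor family (chromosome 2, 125859109 to 126152004, mm10), stood at 1.37, 0.661 and 1.42 FPKM in transgenic and 6.76, 6.12 and 5.14 FPKM in Cck-/- libraries at week 12. At week 28 Fgf7 stood at 0.446, 0.564 and 0.543 FPKM in transgenic and 5.49, 6.37 and 6.25 FPKM in Cck-/- libraries. No transgenic library reached the lowest Cck-/- value, and the 3 week 28 transgenic libraries were lower than all 3 at week 12 (limma, log2 fold change -1.97, SE 0.12, adjusted p = 5.26e-06). Atp2a3, which encodes the calcium pump SERCA3 of the endoplasmic reticulum (chromosome 11, 72961169 to 72993043), stood at 25.3, 22.4 and 34.3 FPKM in transgenic and 74.8, 65.1 and 62.3 FPKM in Cck-/- libraries at week 12. At week 28 Atp2a3 stood at 12.0, 10.6 and 13.6 FPKM in transgenic and 57.9, 60.6 and 62.0 FPKM in Cck-/- libraries. Its groups were apart at both ages and further apart at week 28 (limma, log2 fold change -1.76, SE 0.16, adjusted p = 9.37e-05). Mdfi, an inhibitor of MyoD family transcription factors (chromosome 17, 47815328 to 47834691), had the smallest SE of the 12 largest reductions, with 3.44, 3.61 and 3.96 FPKM in transgenic and 11.4, 10.4 and 10.1 FPKM in Cck-/- libraries at week 12. At week 28 Mdfi stood at 2.77, 2.54 and 2.48 FPKM in transgenic and 10.9, 8.09 and 8.25 FPKM in Cck-/- libraries (limma, log2 fold change -1.40, SE 0.070, adjusted p = 2.04e-06). Opn3, the light-sensitive protein encephalopsin (chromosome 1, 175662421 to 175692632), was at 1.76, 1.92 and 3.29 FPKM in transgenic and 10.6, 10.2 and 10.1 FPKM in Cck-/- libraries at week 12. At week 28 Opn3 stood at 1.72, 1.71 and 1.49 FPKM in transgenic and 6.69, 7.19 and 7.28 FPKM in Cck-/- libraries, and its week 12 difference (-1.79) was no smaller than that of week 28 (-1.61; limma, log2 fold change -1.70, SE 0.094, adjusted p = 3.06e-06).

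Car8, a carbonic anhydrase relative without enzyme activity that binds the inositol trisphosphate receptor (chromosome 4, 8141493 to 8239041), stood at 185, 174 and 244 FPKM in transgenic and 429, 376 and 382 FPKM in Cck-/- libraries at week 12. At week 28 Car8 stood at 87.8, 70.1 and 133 FPKM in transgenic and 383, 363 and 374 FPKM in Cck-/- libraries (limma, log2 fold change -1.49, SE 0.19, adjusted p = 0.000795). Transgenic libraries of week 28 were below those of week 12 while the Cck-/- libraries of both ages overlapped. Th, tyrosine hydroxylase of catecholamine synthesis, which some mouse Purkinje cells express, was at 0.824, 0.548 and 1.10 FPKM in transgenic and 2.64, 5.50 and 4.52 FPKM in Cck-/- libraries at week 12. At week 28 Th stood at 2.13, 1.59 and 0.588 FPKM in transgenic and 4.06, 6.59 and 6.12 FPKM in Cck-/- libraries; the groups did not overlap at these low levels (limma, log2 fold change -1.48, SE 0.18, adjusted p = 0.000567). Among the remaining named reductions were Garnl3 (-1.64), the centrosomal protein gene Cep76 (-1.53), the mitotic kinase gene Nek2 (-1.43), Tmem255a (-1.40), the STRIPAK component gene Strip2 (-1.40) and Fam117a (-1.39, pooled log2 fold changes). All 12 of these named reductions were without overlap over the 12 libraries, kept their call without any 1 library, and passed without the 3 mixed libraries. The largest reduction among the called genes, -2.22, was that of a clone-named gene of unassigned function.

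**Figure D2:**
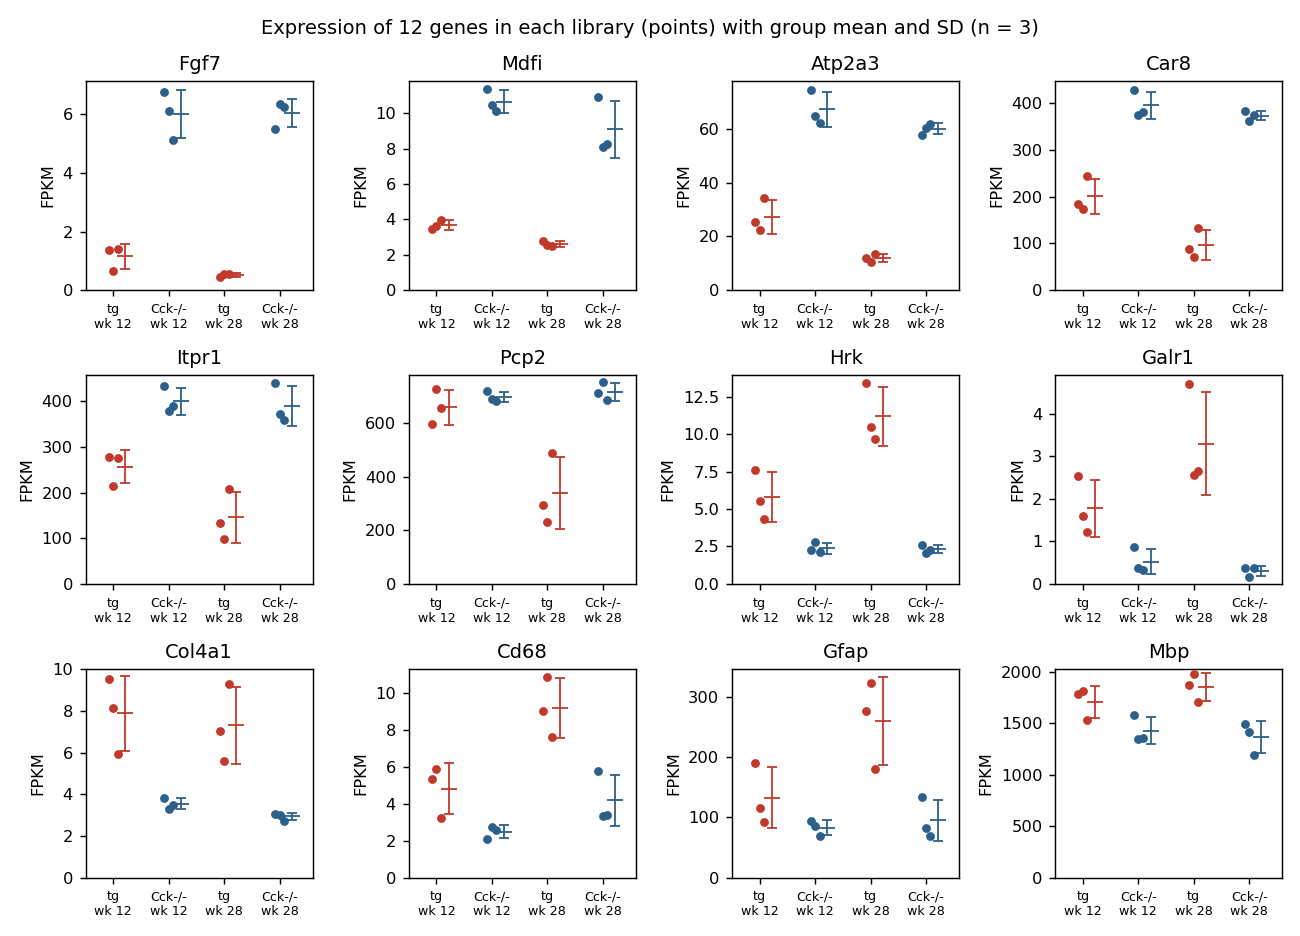
FPKM of 12 genes in each library (points), with the mean and SD of 3 libraries beside them, transgenic left of Cck-/- at each week. Fgf7, Mdfi, Atp2a3, Car8 and Itpr1 are below Cck-/- in every transgenic library, Pcp2 is below only at week 28, and Hrk, Galr1 and Col4a1 are above at both ages.

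Most genes of Purkinje cell identity fell. Of 30 tested, 24 were lower and none was higher, with a median log2 fold change of -0.73 (all genes tested: 0.0028). At week 12 alone 7 members were called, with a median of -0.50, and at week 28 alone 26, with a median of -1.09. The mean log2 level of the list was 5.41, 5.38 and 5.58 in transgenic and 6.03, 5.94 and 5.95 in Cck-/- libraries at week 12, and 4.74, 4.52 and 5.14 against 5.92, 5.88 and 5.88 at week 28. Calb1, the calcium buffer calbindin, stood at 256, 267 and 306 FPKM in transgenic and 410.4, 373 and 386 FPKM in Cck-/- libraries at week 12. At week 28 Calb1 stood at 132, 104 and 205 FPKM in transgenic and 375, 366 and 381 FPKM in Cck-/- libraries (limma, log2 fold change -0.95, SE 0.18, adjusted p = 0.00787). Transgenic week 28 replicate 3 was the highest of its group, for Calb1 as for the list. Gng13, a G protein gamma subunit (-1.23), Doc2b, a calcium sensor of vesicle release (-1.36), Pde5a, a phosphodiesterase of cyclic GMP (-0.90), and the transcription factor gene Ebf2 (-0.74) were among the called members. Pcp2 itself behaved otherwise: it was at 596, 726 and 658 FPKM in transgenic and 719.9, 689.7 and 684 FPKM in Cck-/- libraries at week 12. At week 28 Pcp2 stood at 293, 232 and 490.2 FPKM in transgenic and 714, 753 and 686 FPKM in Cck-/- libraries. Its groups overlapped at week 12 and were apart at week 28, and the average missed the threshold (limma, log2 fold change -0.62, SE 0.21, adjusted p = 0.0992). Pcp4 (-0.45, adjusted p = 0.105), Ebf1 (-0.075, 0.444), Foxp2 (-0.35, 0.271), Pvalb (-0.26, 0.379) and Gad1 (-0.21, 0.0630; limma) were the other 5 that were not called, the last 2 being shared with inhibitory interneurons. In bulk tissue, fewer Purkinje cells and less RNA per cell cannot be told apart. Without the 3 mixed libraries 12 of the 30 were called lower.

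Most genes of Purkinje cell calcium signalling were lower, while the G protein genes Gnaq and Gna11 did not pass. Of 32 members, 21 were lower and 1 was higher (median -0.42). The phospholipase C genes Plcb3 and Plcb4 (Plcb4 -0.28), the inositol trisphosphate receptor gene Itpr1, the phosphatase gene Inpp5a (-0.89), and the kinase gene Prkg1 (-0.93) were lower. Itpr1 stood at 278, 215 and 277 FPKM in transgenic and 434, 378 and 389 FPKM in Cck-/- libraries at week 12. At week 28 Itpr1 stood at 133, 97.7 and 207 FPKM in transgenic and 441, 372 and 359 FPKM in Cck-/- libraries; no transgenic library reached the Cck-/- range at either age (limma, log2 fold change -1.06, SE 0.19, adjusted p = 0.00538). Pumps that refill the calcium store were lower as well, Atp2a3 above and the more widely expressed Atp2a2 (-0.61, SE 0.057). Camk2a, a calcium-dependent kinase gene, was at 12.1, 8.75 and 12.2 FPKM in transgenic and 33.0, 26.7 and 19.7 FPKM in Cck-/- libraries at week 12, and 6.40, 17.0 and 11.3 FPKM against 33.0, 22.4 and 21.3 FPKM at week 28 (limma, log2 fold change -1.16, SE 0.20, adjusted p = 0.00436). The 1 member that rose was Gucy1a3, a subunit of the nitric oxide receptor (log2 fold change 0.20). All 6 genes long known as reduced in SCA1 Purkinje cells were lower here, among them Icmt, a carboxyl methyltransferase of prenylated proteins (-1.30), and Slc1a6, the Purkinje cell glutamate transporter (-0.67); that list was compiled from knowledge of ATXN1 mice and is not independent of the disease model. Leaving out the 3 mixed libraries, 9 of the 32 calcium genes and 3 of the 6 were called.

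Ion channels and synaptic proteins moved less uniformly. Among 25 channel genes of Purkinje cell firing, 9 were lower and 1 higher, with a median of -0.14. Kcnab1, an auxiliary potassium channel subunit gene, stood at 35.3, 32.8 and 45.2 FPKM in transgenic and 73.3, 49.6 and 59.5 FPKM in Cck-/- libraries at week 12. At week 28 Kcnab1 stood at 27.1, 25.4 and 30.8 FPKM in transgenic and 53.5, 61.3 and 63.9 FPKM in Cck-/- libraries (limma, log2 fold change -0.87, SE 0.12, adjusted p = 0.000855), with no overlap. The potassium channel modulator gene Kcnip1 (-0.66) and the calcium channel subunit gene Cacnb4 (-0.23) fell by smaller amounts, and Kcna1 was the 1 that rose (0.19). Of 22 genes of the synapses onto Purkinje cells, 5 were lower, among them the scaffold genes Shank2 (-0.70) and Shank1 (-0.36). Genes mutated in other inherited ataxias held 9 lower members of 39 and 1 higher, against a list median of -0.026; the lower ones included Car8, Itpr1, Cacnb4, Cacna1g (-0.62) and Slc1a3 (-0.48). Without the 3 mixed libraries no channel gene was called lower, and 2 synaptic and 3 ataxia genes were.

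Increased transcripts were fewer and differed in kind. Hrk, a BH3-only protein of the BCL2 family that promotes apoptosis (chromosome 5, 118169764 to 118189478), stood at 7.62, 5.54 and 4.32 FPKM in transgenic and 2.28, 2.81 and 2.10 FPKM in Cck-/- libraries at week 12. At week 28 Hrk stood at 13.4, 10.5 and 9.66 FPKM in transgenic and 2.62, 2.06 and 2.30 FPKM in Cck-/- libraries. All 6 transgenic libraries exceeded all 6 Cck-/- libraries (limma, log2 fold change 1.42, SE 0.17, adjusted p = 0.000454). Of the 14 genes of the BCL2 family tested, Bbc3 (0.43) also rose and Bok (-0.61) and Bcl2l2 (-0.18) fell, while the other 10 did not pass. Bcl2l2 lost its call without any 1 of 3 libraries (highest adjusted p = 0.0659, without Cck-/- week 28 replicate 2), and Bbc3, Bok and Bcl2l2 were not called without the 3 mixed libraries (0.0632, 0.157 and 0.117; limma). Mslnl, a mesothelin-like gene (chromosome 17, 25736040 to 25748330), was at 1.02, 2.16 and 1.01 FPKM in transgenic and 0.301, 0.134 and 0.220 FPKM in Cck-/- libraries at week 12. At week 28 Mslnl stood at 3.47, 6.67 and 3.92 FPKM in transgenic and 0.211, 0.478 and 0.690 FPKM in Cck-/- libraries, higher in each transgenic library than in any control (limma, log2 fold change 1.44, SE 0.21, adjusted p = 0.00150). Galr1, a receptor for the neuropeptide galanin, stood at 2.53, 1.59 and 1.22 FPKM in transgenic and 0.858, 0.386 and 0.333 FPKM in Cck-/- libraries at week 12. At week 28 Galr1 stood at 4.69, 2.56 and 2.65 FPKM in transgenic and 0.381, 0.157 and 0.372 FPKM in Cck-/- libraries (limma, log2 fold change 1.27, SE 0.19, adjusted p = 0.00179). Mslnl and Galr1 reached 1 FPKM in transgenic libraries and in no Cck-/- library, so they passed the filter on low levels only through the genotype in which they are high, and their tests give no independent support. Higher levels were also found for Pappa, a protease of IGF-binding proteins (0.99), and the neurotrophin gene Ntf3 (0.82). Hrk, Galr1 and Col4a1 were called without the 3 mixed libraries, and Mslnl (adjusted p = 0.064), Pappa (0.141) and Ntf3 (0.0637; limma) were not.

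Col4a1 and Col4a2, which encode the chains of type IV collagen in basement membranes, rose together and lie head to head on chromosome 8. Col4a1 stood at 9.53, 8.17 and 5.96 FPKM in transgenic and 3.85, 3.32 and 3.50 FPKM in Cck-/- libraries at week 12. At week 28 Col4a1 stood at 7.05, 5.61 and 9.29 FPKM in transgenic and 3.08, 3.01 and 2.74 FPKM in Cck-/- libraries, and the groups did not overlap (limma, log2 fold change 1.00, SE 0.11, adjusted p = 0.000327). Col4a2 was at 5.58, 4.78 and 4.25 FPKM in transgenic and 3.08, 2.63 and 2.44 FPKM in Cck-/- libraries at week 12. At week 28 Col4a2 stood at 4.67, 4.59 and 6.51 FPKM in transgenic and 2.73, 2.63 and 2.56 FPKM in Cck-/- libraries, also without overlap (limma, log2 fold change 0.71, SE 0.083, adjusted p = 0.000418). At week 5 the groups overlapped for both genes (log2 fold changes 0.13 and 0.062). Of the other 20 genes of basement membrane and collagens tested, Col5a2 was the 1 called (0.28). Its call was lost without any 1 of 9 libraries (highest adjusted p = 0.0967, without transgenic week 28 replicate 2) and without the 3 mixed libraries (0.191; limma), where Col4a1 and Col4a2 were still called. Windows from 250 bases before to 50 after each annotated start, taken from RefSeq on GRCm38.p6, overlap between this pair, and the 78 bases they share (chr8:11312777-11312854) are in capitals. The minus-strand window of Col4a1 is chr8:11312777-11313076 and the plus-strand window of Col4a2 is chr8:11312555-11312854.
Col4a1: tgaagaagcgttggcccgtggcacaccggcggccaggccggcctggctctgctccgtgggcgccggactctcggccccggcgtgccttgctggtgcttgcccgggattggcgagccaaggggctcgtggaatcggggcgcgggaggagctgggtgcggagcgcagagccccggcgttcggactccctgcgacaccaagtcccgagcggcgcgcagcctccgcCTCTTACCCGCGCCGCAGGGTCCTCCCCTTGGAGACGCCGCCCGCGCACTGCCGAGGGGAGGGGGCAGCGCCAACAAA
Col4a2: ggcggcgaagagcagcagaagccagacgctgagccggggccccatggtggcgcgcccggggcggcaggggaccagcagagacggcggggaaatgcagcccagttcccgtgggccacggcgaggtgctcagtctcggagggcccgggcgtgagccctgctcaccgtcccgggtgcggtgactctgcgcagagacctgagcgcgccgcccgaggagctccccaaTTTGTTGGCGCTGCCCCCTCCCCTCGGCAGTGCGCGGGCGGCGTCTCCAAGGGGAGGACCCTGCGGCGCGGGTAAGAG

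Promoter windows of the same kind were searched on both strands for 5 motifs: the Capicua octamers TGAATGAA and TGAATGGA, the cyclic AMP response element TGACGTCA, and shorter cores of the ROR motif (TAGGTCA) and the EBF motif (CCCNNGGG). Of 24 genes with the largest changes, 16 had a window and 6 held a match to any motif. The 2 with a match to 1 of the 3 octamers are printed, with the match in capitals. Th, on the minus strand at chr7:142899946-142900245, has the cyclic AMP response element 45 bases before its start. Mslnl, on the plus strand at chr17:25735790-25736089, has a Capicua octamer 188 bases before its start.
Th: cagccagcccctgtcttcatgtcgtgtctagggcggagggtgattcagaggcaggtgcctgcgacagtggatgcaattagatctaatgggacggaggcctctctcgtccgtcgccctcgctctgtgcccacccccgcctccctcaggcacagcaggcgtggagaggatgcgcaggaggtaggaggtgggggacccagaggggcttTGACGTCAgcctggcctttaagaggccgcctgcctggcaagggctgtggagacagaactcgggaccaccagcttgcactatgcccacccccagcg
Mslnl: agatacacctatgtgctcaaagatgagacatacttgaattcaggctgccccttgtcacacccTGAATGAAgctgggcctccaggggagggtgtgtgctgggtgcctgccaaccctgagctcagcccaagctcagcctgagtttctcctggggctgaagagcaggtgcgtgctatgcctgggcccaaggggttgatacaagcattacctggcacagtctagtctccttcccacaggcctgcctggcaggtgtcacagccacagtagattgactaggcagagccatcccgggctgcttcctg
No motif contains another. TGAATGAA was in 1.05% of windows of higher genes and 0.673% of those of lower genes, against 0.789% of all 13056 windows of genes tested, and TGAATGGA in 1.05% and 0.842%, against 0.705%. These shares rest on few windows: 4 of 380 of higher genes for each Capicua octamer, and 4 and 5 of 594 of lower genes. A gene can have several windows. TGACGTCA was in 2.11% of windows of higher and 2.86% of lower genes, against 2.95%. TAGGTCA was in 3.42% and 2.53%, against 1.74%, and CCCNNGGG in 21.8% and 19%, against 18.2%.

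Many genes of microglia, the resident immune cells of the brain, rose and none fell. Of 21 homeostatic microglial genes 10 were higher (median 0.34), and of 17 genes of activated microglia 10 were higher (median 0.45). Cd68, a lysosomal protein of phagocytes (chromosome 11, 69664213 to 69666170), stood at 5.35, 5.86 and 3.24 FPKM in transgenic and 2.08, 2.77 and 2.59 FPKM in Cck-/- libraries at week 12. At week 28 Cd68 stood at 9.0, 10.9 and 7.62 FPKM in transgenic and 5.76, 3.36 and 3.40 FPKM in Cck-/- libraries; the groups were apart within each week, and Cck-/- week 28 replicate 1 was above 2 transgenic week 12 libraries (limma, log2 fold change 0.85, SE 0.15, adjusted p = 0.00433). Clec7a, the receptor dectin-1, was at 1.31, 1.17 and 0.700 FPKM in transgenic and 0.299, 0.215 and 0.219 FPKM in Cck-/- libraries at week 12. At week 28 Clec7a stood at 2.01, 2.98 and 1.70 FPKM in transgenic and 0.686, 0.537 and 0.518 FPKM in Cck-/- libraries, with no overlap over the 12 libraries (limma, log2 fold change 0.86, SE 0.11, adjusted p = 0.000578). No Cck-/- library reached 1 FPKM, so Clec7a too passed the filter only through transgenic libraries. Tyrobp, the signalling adaptor of several microglial receptors (0.82), its partner Trem2 (0.83), the surface antigen gene Cd52 (0.77) and the lectin gene Lgals3 (0.71) were higher as well. Complement, the plasma cascade that tags cells for removal, was higher in 4 of 9 genes tested: C1qa (0.72), C1qb (0.72), C1qc (0.68) and C4b (0.90). C1qa, C1qb and C1qc also belong to the homeostatic list and C4b to the list of reactive astrocytes, so complement adds no further called gene. Of all genes tested, 2.94% were called higher. P2ry12, Tmem119 and Csf1r, defining genes of homeostatic microglia, were not among those called. The mean log2 level of the activated list was 3.30, 3.17 and 2.86 in transgenic and 2.77, 2.78 and 2.66 in Cck-/- libraries at week 12, and 3.47, 3.59 and 3.29 against 3.06, 2.84 and 2.82 at week 28. Without the 3 mixed libraries 4 activated genes and none of the homeostatic or complement genes were called. Leaving out 1 library at a time, the homeostatic count was 3 without Cck-/- week 28 replicate 2 or transgenic week 28 replicate 1, 4 without Cck-/- week 28 replicate 3 and 5 without transgenic week 12 replicate 2. The complement count was 2 without any 1 of the first 3 of these.

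**Figure D3:**
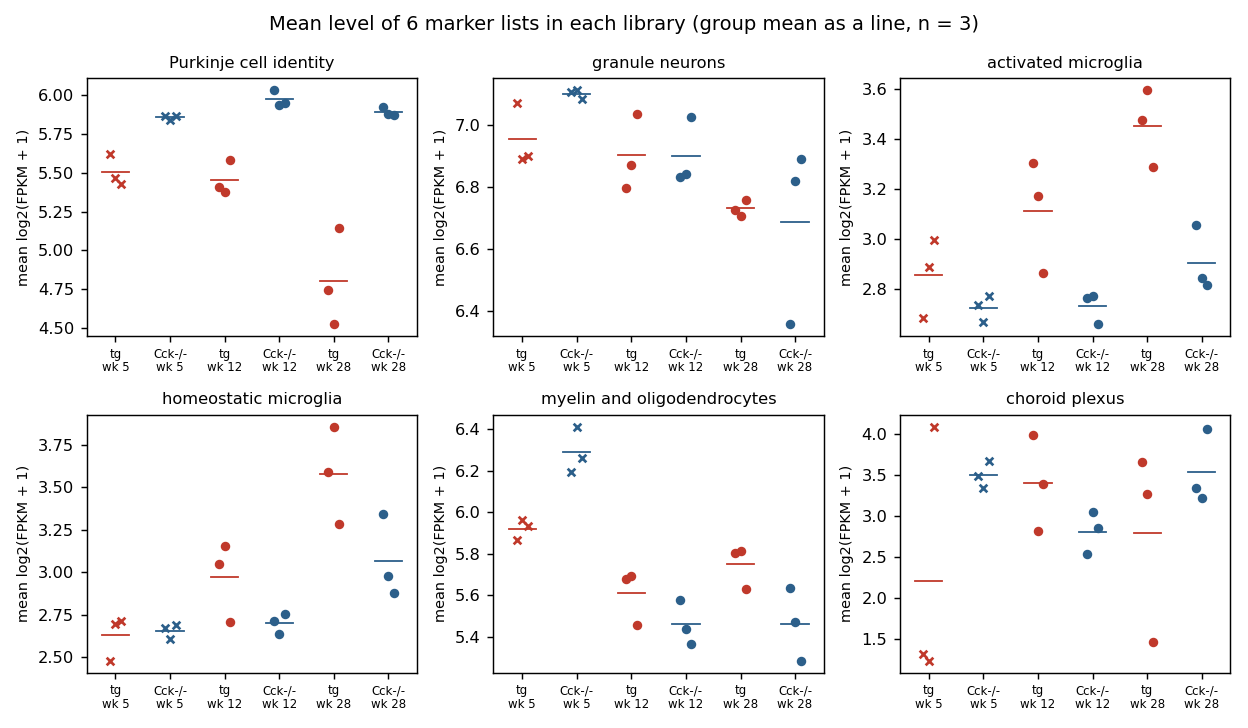
Mean log2(FPKM + 1) over the members of 6 marker lists in each library (points; crosses are the week 5 libraries, which the average leaves out), with group means of 3 libraries as lines, transgenic left of Cck-/- at each week. Purkinje cell identity is lower in each transgenic library, granule neuron levels overlap at weeks 12 and 28, and 1 transgenic library of week 28 and 2 of week 5 are low for choroid plexus.

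Astrocytes, including the Bergmann glia that ensheath Purkinje cell dendrites, showed changes in both directions. Gfap, the intermediate filament protein of reactive astrocytes (chromosome 11, 102887336 to 102897200), stood at 190.3, 116 and 92.4 FPKM in transgenic and 93.3, 85.8 and 69.7 FPKM in Cck-/- libraries at week 12. At week 28 Gfap stood at 277, 324 and 180.5 FPKM in transgenic and 134, 83.1 and 69.5 FPKM in Cck-/- libraries. At week 12 the groups overlapped and at week 28 they did not (limma, log2 fold change 1.03, SE 0.24, adjusted p = 0.0221). Of 18 genes of reactive astrocytes 4 were higher, C4b, Cd44 (0.62), Gfap and S1pr3 (0.28), and the class I antigen gene H2-D1 was lower (-0.32). Of 25 genes of Bergmann glia and astrocytes, Aqp4, the water channel of astrocyte endfeet (0.61), and the gap junction gene Gja1 (0.47) were higher. Fabp7, a fatty acid binding protein (-0.62), Slc1a3, the glutamate transporter GLAST (-0.48), Etv4 (-0.44) and Sept4 (-0.40) were lower. Slc1a3 stood at 297, 306 and 354 FPKM in transgenic and 378, 353 and 404 FPKM in Cck-/- libraries at week 12. At week 28 Slc1a3 stood at 196, 180.2 and 275 FPKM in transgenic and 375, 347 and 337 FPKM in Cck-/- libraries, with its lowest values in transgenic week 28 libraries (limma, log2 fold change -0.48, SE 0.11, adjusted p = 0.0247). Calls of Gfap, Gja1, Aqp4 and Etv4 were lost without transgenic week 28 replicate 1 (adjusted p = 0.0606, 0.0868, 0.0941 and 0.0961), those of Slc1a3 and H2-D1 without Cck-/- week 28 replicate 2 (0.0639 and 0.0574) and that of Cd44 without Cck-/- week 28 replicate 3 (0.0541; limma), and other libraries did the same for some of them. No member of either list was called without the 3 mixed libraries.

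Of 24 myelin genes tested, 4 were called higher and none lower, and 20 did not pass. The median of the list was 0.24, and at week 5, which was not tested, it was -0.38. Mbp, myelin basic protein and the most abundant of all called genes, stood at 1787, 1814 and 1532 FPKM in transgenic and 1579, 1353 and 1354 FPKM in Cck-/- libraries at week 12. At week 28 Mbp stood at 1873, 1983 and 1709 FPKM in transgenic and 1496, 1414 and 1191 FPKM in Cck-/- libraries (limma, log2 fold change 0.35, SE 0.081, adjusted p = 0.0220). At week 5 it was at 2381, 2410.0 and 2308 FPKM in transgenic and 2831, 3259 and 2850.0 FPKM in Cck-/- libraries, where each transgenic library was below each control. Fa2h, which hydroxylates myelin lipids, had a pooled log2 fold change of 0.24 and a week 5 value of -0.50; for Mag, a myelin adhesion molecule, the values were 0.27 and -0.42, and for the connexin gene Gjb1 0.24 and -0.33. The count depended on single libraries: between 1 and 10 of the 24 were called when 1 was left out, 10 without transgenic week 12 replicate 3, 7 without Cck-/- week 28 replicate 1, and 1 without transgenic week 12 replicate 1, week 28 replicate 1 or week 28 replicate 2. No myelin gene passed without the 3 mixed libraries. Bcas1, of newly formed oligodendrocytes, was the 1 called gene among 12 of oligodendrocyte precursors (0.34), and its call was lost without the 3 mixed libraries (adjusted p = 0.129; limma).

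Other cell types and pathways held few called genes, where 2.94% of all genes tested were called higher and 4.46% lower. Of the mTORC1 genes below, 2% were called higher and 2% lower, under both shares. None of 16 granule neuron genes, 18 endothelial, 13 pericyte, 18 choroid plexus, 18 meningeal, 9 ependymal or 8 blood genes passed, nor did any of 5 sex-linked genes. All 18 meningeal genes had values above 0, with a median of 0.24, where 6909 of the 13487 genes tested were above 0; the median was -0.063 for choroid plexus and -0.29 for blood genes. The part of these shifts in the collagen and microglial differences was not tested. Of 17 genes of inhibitory interneurons, Slc6a5, the glycine transporter (0.33), was higher, and Gad2, which makes GABA (-0.26), and the peptide gene Npy (-1.02) were lower. The calls of Slc6a5 and Npy were lost without Cck-/- week 28 replicate 2 (adjusted p = 0.0796 and 0.0637; limma), and Slc6a5, Gad2 and Npy were not called without the 3 mixed libraries (0.178, 0.0524 and 0.0569). The mTORC1 growth pathway, a subject of the series, had 2 calls among 50 genes: Pik3r1, a regulatory subunit of phosphoinositide 3-kinase (0.26), and Mtor itself, which was at 14.8, 13.1 and 14.4 FPKM in transgenic and 16.4, 15.7 and 15.3 FPKM in Cck-/- libraries at week 12. At week 28 Mtor stood at 14.4, 14.6 and 14.2 FPKM in transgenic and 15.2, 15.9 and 15.6 FPKM in Cck-/- libraries (limma, log2 fold change -0.13, SE 0.035, adjusted p = 0.0401). Mtor lost its call when any 1 of 10 libraries was left out (highest adjusted p = 0.0913, without Cck-/- week 28 replicate 2) and was not called without the 3 mixed libraries (0.273; limma), where Pik3r1 was. Transcript levels say nothing of kinase activity. Of 19 genes of cholecystokinin and neuropeptide processing, the prohormone convertase gene Pcsk1 (-0.83) and Npy were lower and Galr1 was higher; Pcsk1 and Galr1 were also called without the 3 mixed libraries. Cckbr, a receptor for cholecystokinin, stood at 1.14 FPKM in transgenic and 1.06 FPKM in Cck-/- libraries (medians of 6; limma, log2 fold change -0.0046, SE 0.17, adjusted p = 0.993), and Cckar, the other receptor, at 0.0157 to 0.0654 FPKM in transgenic and 0.0160 to 0.0838 FPKM in Cck-/- libraries, too low to test.

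Ataxin-1 partners and Capicua targets gave 5 calls among 22. The phosphatase genes Dusp4 (-0.35) and Dusp6 (-0.19), Etv4, which is an ETS factor gene repressed by Capicua, and Rora, a nuclear receptor of Purkinje cells (-0.35), were lower, and Ccnd1, cyclin D1, was higher (0.34). The calls of Rora and Etv4 were lost without transgenic week 28 replicate 1 (adjusted p = 0.0654 and 0.0961; limma). None of the 4 lower genes was called without the 3 mixed libraries, nor was Ccnd1 (adjusted p = 0.182; limma). Cic, Atxn1l and the Capicua targets Etv1, Etv5 and Spry4 did not pass. No gene of oxidative phosphorylation (37 tested, 32 of them below 0) or of cholesterol synthesis (24 tested) was called. Eif2ak3, the stress kinase PERK, was the 1 call among 22 genes of the unfolded protein and integrated stress response (0.35). Among 17 heat-shock genes Hsph1 (-0.24) and St13 (-0.16) fell, and among 18 immediate early genes Jun rose (0.48). In lists of small size, H2-D1 was the 1 call of 19 class I and interferon genes, Plcb4 of 8 unipolar brush cell genes and Slc6a5 of 7 genes of cerebellar nuclei and brainstem, and Th and Ppp1r1b (-0.49) were lower among 7 markers of midbrain and forebrain. Single calls made 4.55% of the stress response list and 5.56% of the immediate early list higher, against 2.94% of all genes tested. For the class I list the share lower was 5.26%, against 4.46%. St13 lost its call without any 1 of 5 libraries (highest adjusted p = 0.0716, without transgenic week 28 replicate 1; limma). Without the 3 mixed libraries Th and Ppp1r1b were called, and Eif2ak3 (0.0506), Hsph1 (0.0506), St13 (0.200), Jun (0.0887), H2-D1 (0.0550) and Plcb4 (0.0656, adjusted p of limma) were not.

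**Figure D4:**
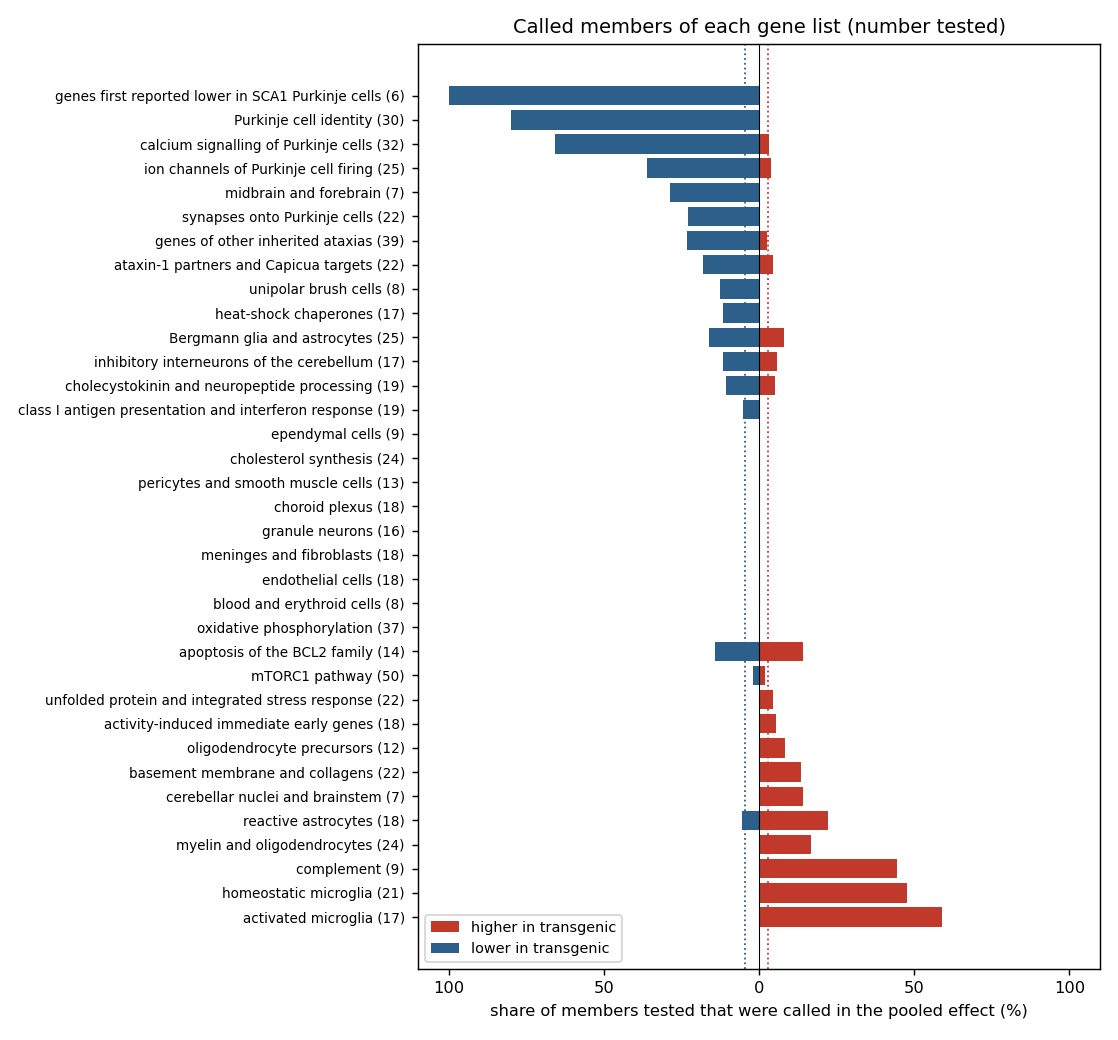
Share of the tested members of each gene list other than the sex-linked genes (number tested in parentheses) that were called higher (right) or lower (left) in transgenic libraries in the average of weeks 12 and 28; dotted lines mark the shares over all genes tested, 2.94% and 4.46%. Lists of Purkinje cell genes extend to the left and microglial and complement lists to the right, while 9 lists held no called gene.

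Most of the abundant called transcripts moved by less than 2-fold. Among the higher genes with the highest mean level, Apoe, a lipid carrier of glia, stood at 1387, 1450.0 and 1134 FPKM in transgenic and 1042, 1010.0 and 968 FPKM in Cck-/- libraries at week 12. At week 28 Apoe stood at 1541, 1713 and 1365 FPKM in transgenic and 1196, 1034 and 968 FPKM in Cck-/- libraries (limma, log2 fold change 0.46, SE 0.083, adjusted p = 0.00578), and Clu, the chaperone clusterin, had a log2 fold change of 0.46. Mt1, metallothionein (0.32), Cd81 (0.18) and Itm2c (0.27) were higher too. Among the lower ones were Ywhah, the 14-3-3 protein eta (-0.54), Sepw1, selenoprotein W (-0.46), Pebp1 (-0.28), Gng13 (-1.23) and Calm2, a calmodulin gene (-0.21). Pebp1, an inhibitor of RAF kinase, was at 369, 388 and 385 FPKM in transgenic and 414, 417 and 422 FPKM in Cck-/- libraries at week 12. At week 28 Pebp1 stood at 305, 309 and 331 FPKM in transgenic and 431, 416 and 419.8 FPKM in Cck-/- libraries, with no overlap over all 12 libraries (limma, log2 fold change -0.28, SE 0.054, adjusted p = 0.00861). Mt1, Cd81, Itm2c and Calm2 each lost the call without at least 7 of the 12 libraries, left out 1 at a time (highest adjusted p = 0.0762, 0.0944, 0.102 and 0.107; limma). Gng13 was the 1 of these abundant genes that was called without the 3 mixed libraries (adjusted p = 0.0498), and Apoe (0.0845), Clu (0.0524), Ywhah (0.0772), Sepw1 (0.0683) and Pebp1 (0.0949; limma) were among those that were not.

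Averaging over 2 ages called genes that neither age called alone. The week 12 effect by itself passed for 86 genes (0.638%), of which 10 were higher (0.0741%) and 76 lower (0.564%), and that of week 28 for 857 (6.35%), of which 320 were higher (2.37%) and 537 lower (3.98%). Of the 997 genes, 84 were called at both weeks, 537 at week 28 only, 2 at week 12 only and 374 at neither; a further 236 were called at week 28 and not in the average. The 374 had a median absolute log2 fold change of 0.229, against 0.389 in the other called genes. Cacnb4, the channel subunit gene above, is an example: it was at 64.6, 61.8 and 67.6 FPKM in transgenic and 81.8, 73.5 and 80.2 FPKM in Cck-/- libraries at week 12. At week 28 Cacnb4 stood at 55.3, 55.4 and 56.9 FPKM in transgenic and 60.1, 63.5 and 67.3 FPKM in Cck-/- libraries. Its differences at week 12 (-0.28, adjusted p = 0.0539) and week 28 (-0.18, 0.0778) each missed the threshold and their average passed it (limma, log2 fold change -0.23, SE 0.040, adjusted p = 0.00466). Prodh, proline dehydrogenase (0.46), and Nkain1 (0.26) were higher in the same manner, and Sec23a, a coat protein of vesicles leaving the endoplasmic reticulum (-0.15), Tmed8 (-0.21), Fem1c (-0.23), Paxbp1 (-0.24) and Dusp4 were lower. Fem1c was also called without the 3 mixed libraries, and Cacnb4, Prodh, Nkain1, Sec23a, Tmed8, Paxbp1 and Dusp4 were not (adjusted p between 0.0506 and 0.146; limma).

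No gene passed the test of a change in the genotype effect between the 2 weeks (limma, 0 of 13487; 1098 at an unadjusted p under 0.05, lowest adjusted p 0.593). Most called genes stood further from 0 at week 28: 302 of the 396 higher and 506 of the 601 lower genes did, where 8531 of all 13487 did. They were called on an average that holds the week 28 values. The 5 genes with the smallest p were Atp2a3, Nppb, Ctxn3, Ndufa7 and Map4k5. Atp2a3 had log2 fold changes of -1.29 at week 12 and -2.23 at week 28. Nppb, the gene of a natriuretic peptide, was at 0.609, 0.234 and 0.173 FPKM in transgenic and 0.0336, 0.118 and 0 FPKM in Cck-/- libraries at week 12. At week 28 Nppb stood at 1.25, 1.20 and 1.75 FPKM in transgenic and 0.0896, 0.0480 and 0 FPKM in Cck-/- libraries, so that Nppb passed the filter on low levels only through the 3 week 28 transgenic libraries; its values were 0.34 and 1.19. Ctxn3, cortexin 3, was at 22.8, 29.4 and 31.9 FPKM in transgenic and 33.4, 32.8 and 34.2 FPKM in Cck-/- libraries at week 12. At week 28 Ctxn3 stood at 12.3, 11.1 and 18.9 FPKM in transgenic and 44.2, 36.0 and 34.2 FPKM in Cck-/- libraries, with log2 fold changes of -0.26 and -1.40. For Ndufa7, a subunit gene of respiratory complex I, they were 0.050 and -0.27, and for the kinase gene Map4k5 -0.084 and 0.18. Over all genes tested the effects at the 2 ages, which share no library, correlated at r = 0.471 across genes, which are not independent replicates. Without transgenic week 28 replicate 3, 43 genes passed this test, and 1 passed without Cck-/- week 12 replicate 1. The fit without the 3 mixed libraries held 1 transgenic library at week 28, so no conclusion is drawn from its count for this test.

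Libraries of week 5, which had no part in the average, mostly showed the same direction. There 510 of the 601 lower genes were lower (84.9%, where 49.9% of all genes tested were below 0) and 286 of the 396 higher genes were higher (72.2%, against 50.1%). Every transgenic week 5 library lay below every Cck-/- one for 338 of the lower genes (56.2%, against 16% of all genes tested), and above for 130 of the higher genes (32.8%, against 15.1%). Fgf7, Atp2a3, Opn3, Mdfi and Car8 were already lower then, by -1.01, -1.36, -2.14, -1.69 and -1.07 on the log2 scale, and Hrk was higher by 1.01. Purkinje cell identity genes had a week 5 median of -0.33. Microglial genes had week 5 medians of 0.037 (homeostatic) and 0.086 (activated), and Cd68 and Clec7a had log2 fold changes of 0.20 and 0.10 there, with overlapping groups. Itpr1 was at 314, 303 and 278 FPKM in transgenic and 273, 302 and 304 FPKM in Cck-/- libraries at week 5, with overlapping groups. For 201 called genes the week 5 sign was opposite; the largest such values were those of Fa2h, Galnt15 (-0.47 against a pooled 0.32), Mag, Apcdd1 (-0.41 against 0.23) and Pdlim2 (-0.38 against 0.30). Cers2, a ceramide synthase of myelin lipids named after its values were seen, had -0.37 against 0.19. Cck differed between genotypes at week 5, and 2 of the 3 transgenic libraries of that age were low in choroid plexus genes, at 1.32 and 1.24 against 4.08 in the other. Transgenic week 5 replicate 1 held Xist at 99.6 FPKM beside Ddx3y at 0.643 FPKM, so it was mixed like the 3 libraries above. Cck-/- week 5 replicates 2 and 3 held Xist at 0.882 and 0.432 FPKM beside Ddx3y at 27.1 and 28.6 FPKM. The part of these in the week 5 values was not tested.

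**Figure D5:**
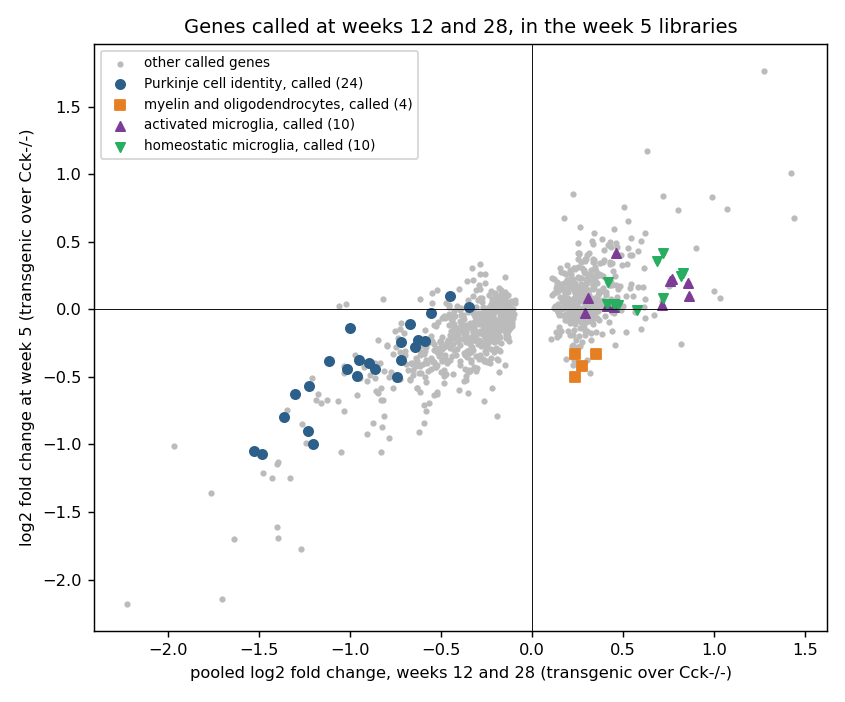
Genes called in the average of weeks 12 and 28: pooled log2 fold change (x axis) against the log2 fold change at week 5 (y axis), transgenic over Cck-/-, with called members of 4 marker lists in colour. Purkinje cell identity genes lie mostly below 0 on both axes, microglial genes near 0 at week 5, and the 4 called myelin genes below 0 at week 5 and above 0 later.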

How the data were processed

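RNA of cerebella was made into libraries with the Illumina TruSeq kit, per the labels. The authors deposited 1 table of FPKM for 22783 genes and 18 libraries, scaled to transcript length and mapped fragments; reads were handled with TopHat2 2.0.11 and Cufflinks 2.2.1 on mm10, per the submitters' processing notes. The annotation and the Cuffnorm settings were not given in the sources used here. Of the values, 21 carried a failed status; 9 tested genes had one in the 12 libraries, and they were kept.

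Depth is unknown, so no counting interval was computed. Log2(FPKM + 1) was tested for the 13487 genes with at least 1 FPKM in at least 3 of the 18 libraries, with limma 3.58.1 in R 4.3.3 and a mean-variance trend. The pooled effect came from an additive model of week and genotype over the 12 libraries (9 residual degrees of freedom), and the effects of single weeks and their difference from means of the 4 groups (8 degrees). P-values are two-sided and adjusted by Benjamini and Hochberg over all genes tested and called under 0.05. Week 5 values are differences of group means and were not tested. On simulated data of the same size, changes of 0.5 (log2) were recovered in 91% of genes and changes of 1 in 99%, and 20 of 13287 unchanged genes were called. Simulated noise was normal and independent between genes. Changed genes were drawn from those with a mean log2 level over 1, and each had the same change in both weeks. Recovery of changes that differ between weeks was not simulated.

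The members, the 36 gene lists and the alternatives were chosen with earlier results of these data known. Genes were named by rule: the 12 largest changes in each direction without overlap at either week, the 6 most abundant called genes in each direction, up to 4 members of each list by p, the 5 smallest p of the change between weeks, 8 genes called at neither week, 5 with the largest opposite week 5 value, and Cck, Cckar, Cckbr, Atxn1, Pcp2 and Xist. Clone-named genes were counted and not named, and some genes that the rule names are not reported here. AF357426, Calb1, Camk2a, Cers2, Itpr1, the uncalled Purkinje cell genes, and called list members given without a further value were named after their values were seen. Promoter windows are RefSeq's on GRCm38.p6, matched by symbol for 10117 tested genes; the ROR and EBF cores were chosen after longer forms had been searched. Alternatives covered pseudocounts of 0.1 and 0.5, filters, rescaling, variance models, library weights, replicate numbers as blocks, choroid plexus and Xist levels as covariates, the libraries in the fit and leaving out each library; a fit without the 3 mixed libraries was added after seeing the data. Tables were handled with pandas 2.3.3 and numpy 2.4.6, and figures drawn with matplotlib 3.10.9 under Python 3.11.15.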

Additional observations from a re-analysis of the deposited data

Results flagged for a closer look

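In 3 genes every library of each age moved one way and every library of another age the opposite way. Gad2, the gene of a GABA-synthesising enzyme, was lower in transgenic libraries at weeks 12 and 28 (log2 fold changes -0.27 and -0.25) and higher at week 5 (0.192). Gjb1, a connexin gene of myelinating cells, was higher at weeks 12 and 28 (0.30 and 0.18) and lower at week 5 (-0.328). Neither difference from week 5 was tested. Map4k5, a kinase gene, was lower at week 12 (-0.0836) and higher at week 28 (0.18); limma's test of that change gave an adjusted p of 0.593. Chance can give such patterns among the 120 genes looked at.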

How the results depend on the processing

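The 997 calls all kept their sign in every alternative that fitted them. Counts moved by over 1.5 times in the following. With library weights the pooled effect gave 2249 genes (1095 higher, 1154 lower), week 12 gave 197, week 28 gave 5542 and the change between weeks 1317. With all 18 libraries in the fit the pooled effect gave 1533 (667 higher), week 12 gave 183 and week 28 gave 1439. Without the 3 mixed libraries the pooled effect gave 177 (29 higher, 148 lower), week 12 gave 38, week 28 gave 553 and the change 41; 37 of 105 named calls were kept. That fit keeps 1 transgenic library at week 28, so its counts for week 28 and for the change lack replicates of that group. No conclusion is drawn from them. Higher genes numbered 257 at a mean FPKM of at least 5 and 261 with Xist as a covariate. With choroid plexus level as a covariate week 28 gave 1397 and the change 20, and week 28 libraries alone gave 337. The cause was not tested.

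Leaving out 1 library at a time, the pooled effect gave 583 to 1177 genes (184 to 534 higher, 399 to 643 lower), week 12 gave 33 to 144, week 28 gave 403 to 1321 and the change 0 to 43. The pooled count was lowest without transgenic week 28 replicate 1 (583), Cck-/- week 28 replicate 2 (598) and Cck-/- week 28 replicate 3 (646). Of 105 named calls 77 were kept without each library.

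Replicate numbers did not pair the libraries: deviations of same-numbered libraries correlated at 0.435, -0.160 and 0.283 at week 12 and at 0.200, -0.139 and -0.018 at week 28. With the replicate block the pooled effect gave 810 genes, 715 of them among the 997, week 12 gave 61, week 28 gave 816 and the change 0.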
